A study of Rattus with 52 samples.

Results

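The effect of peritoneal dialysis (PD) on the kidney was examined across both surgeries at once, in all 26 kidney libraries of the 52 RNA-seq libraries in the series. The members were chosen by the labels alone: every library labelled as kidney, 13 from rats on PD and 13 from Control rats. The rats were male Sprague Dawley, operated on at 10 weeks of age. In the 5/6Nx groups (7 PD and 7 Control libraries) the right kidney and both poles of the left kidney were removed, a rat model of chronic renal insufficiency, and in the Sham groups (6 PD and 6 Control libraries) the kidneys were left in place. All rats, Controls included, received an indwelling peritoneal catheter and had the omentum removed at week 6. The PD rats then had 3 exchanges of dextrose dialysate per day for 8 days, and Control rats received no dialysate. The left kidney, intact in Sham and a remnant in 5/6Nx, was taken at week 7, and a piece of the whole organ was pulverised, so that each library mixes cortex, medulla, vessels and blood cells. The Controls thus shared the surgery and the catheter implantation. The difference between PD and Control covers the dialysate and all that went with its exchanges. This includes the daily handling, the catheter changes described for the PD rats and feeding. The study reports that PD rats of both surgeries ate less than Control rats. These parts cannot be told apart here.

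Peritoneal dialysis uses the lining of the abdomen as a filter: a sugar-rich fluid is left to dwell, takes up urea and other small molecules across the membrane, and is drained. The kidney is not bathed in this fluid. Neutrophils are short-lived blood cells that carry antimicrobial proteins and proteases in granules, and their transcripts appear in tissue RNA when these cells sit in vessels or in the tissue. Chaperones of the cytosol and of the endoplasmic reticulum fold proteins, and cells raise them together under the heat shock response and the unfolded protein response. The circadian clock is a feedback loop in which the Arntl and Clock or Npas2 proteins activate the Per and Cry genes, whose products repress them, and it drives daily cycles of many kidney transcripts.

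The kidney libraries held 16.7 to 65.5 M reads on genes, with a median of 47.9 M in PD and 45.9 M in Control. Across all genes the first principal component, with 58.8% of the variance, separated 5/6Nx from Sham. A 5/6Nx Control library (replicate 1) and a Sham PD library (replicate 6) stood apart from their groups on components 2 and 3, and the counts that follow are given without them where that moved a result. Apart from these 2, replicate 6 of 5/6Nx Control lay nearest to Sham of all 5/6Nx libraries on component 1. It stood at 4.64, against -58.21 to -12.89 for the other 5/6Nx Controls, and was left out only singly. Summed markers of the proximal tubule lay between 55272 and 287880 normalized reads (reads divided by each library's size factor) in PD, and between 49997 and 322458 in Control, and none of the 7 differed between treatments at an unadjusted p under 0.05. The 4 cardiomyocyte markers summed to 37.3 to 359 normalized reads in PD and 37.8 to 384 in Control, and 2 of them had a median of 0. The labelled tissue thus held the markers of kidney.

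In one additive model with surgery as a covariate, 30 of 16285 genes tested differed between PD and Control at an adjusted p under 0.05 (limma with Benjamini-Hochberg adjustment), 0.184% of the genes tested. Of these, 19 were higher in PD (0.117%) and 11 were lower (0.0675%). The genes that rose included 4 neutrophil transcripts, with 4.35-fold to 7.96-fold higher mean reads, and a larger group of chaperones with increases of 1.20-fold to 1.56-fold. Those that fell included Pspc1, Rbmx and Ddx46, which encode a paraspeckle protein, an RNA-binding protein and an RNA helicase. Most of the differences were small, with a median size of 0.43 on the log2 scale of the deposited values, and 19 of the 30 were under 1.5-fold in normalized reads. That scale is a variance-stabilised log2 on which 10, 100 and 1000 normalized reads stand at 6.5, 7.67 and 10.13, so log2 differences of low-count genes come out smaller than their fold in reads. The median difference over all genes tested was -0.006.

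The pooled fit narrowed the errors and changed which genes passed. The median standard error of a PD difference was 0.082 with both surgeries, 0.118 in 5/6Nx alone and 0.102 in Sham alone. With 5/6Nx alone, 2 genes were called (0.0123%), Mmp8 and Arntl, and with Sham alone 32 were called (0.196%). Of the 30 genes of the pooled fit, 1 was called in 5/6Nx alone, 8 in Sham alone and 22 in neither by limma. The study's own count-based tests (DESeq2) of the same groups called more genes in each surgery, in each case more than the 30 of the pooled fit. Npas2 in 5/6Nx and LOC100362814 in Sham were among those, although both belong to the 22. What pooling adds thus depends on the test used for the single surgeries. Those 22 genes comprised 12 higher and 10 lower ones, and 21 of them had an unadjusted p under 0.05 in each surgery. Their adjusted p (limma) ran from 0.0562 to 1.0 in 5/6Nx and from 0.0520 to 0.376 in Sham. All 30 had the same direction in both surgeries. This count and that of 21 genes are favoured in advance, because the pooled fit that picked the genes used the same libraries. Over all genes tested, 4.07% in 5/6Nx and 17.2% in Sham had an unadjusted p under 0.05.

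**Figure D1:**
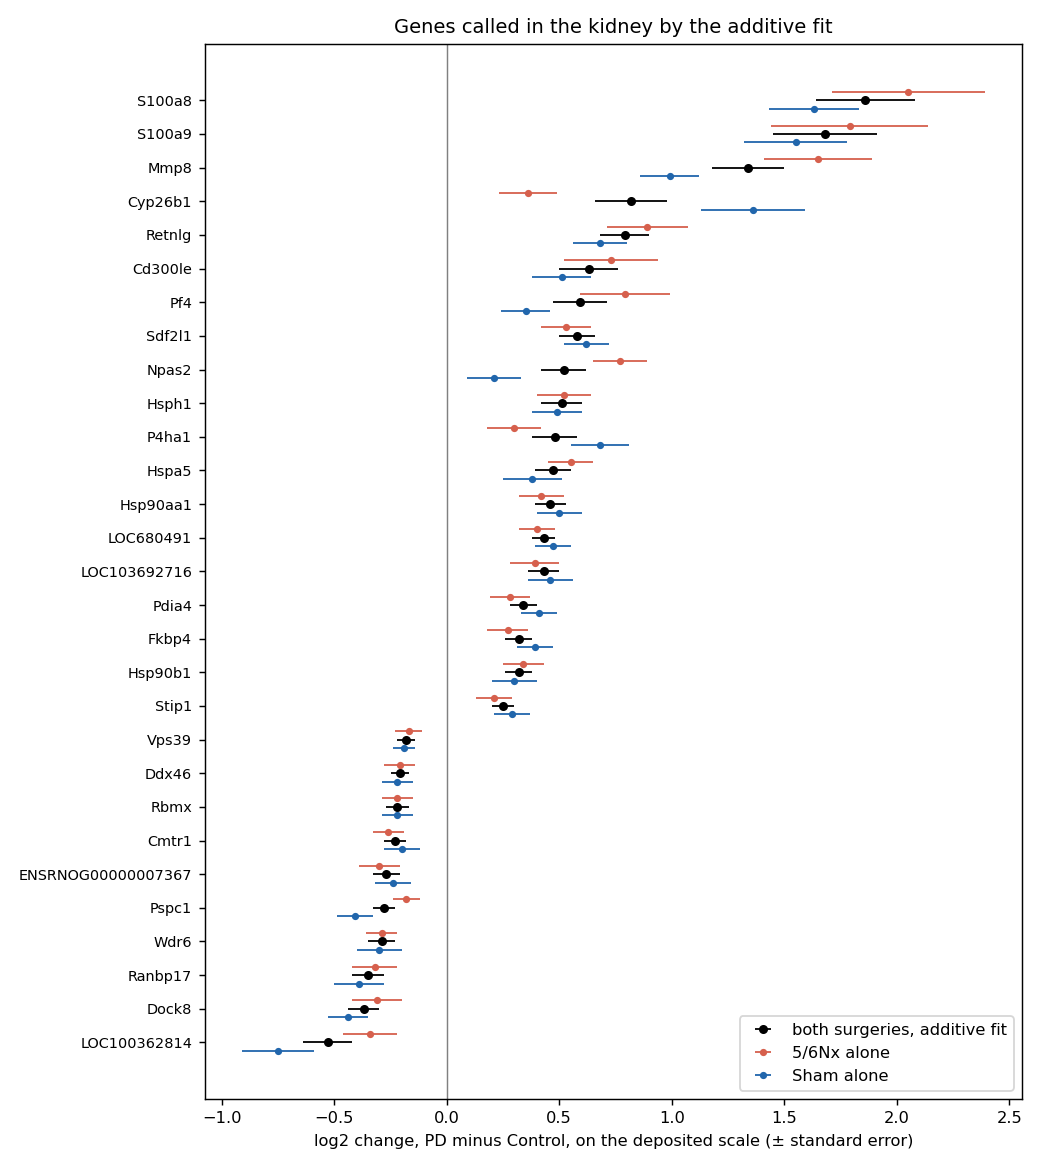
Log2 difference of PD minus Control with its standard error for 29 of the 30 called genes, by the additive fit over both surgeries (black), 5/6Nx alone (red) and Sham alone (blue). All 29 lie on the same side of 0 in the 3 fits, which their choice by the additive fit favours. Cyp26b1, Npas2 and Mmp8 have the widest gaps between the surgeries among the genes shown.

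Whether the 2 surgeries differed in their response was tested by an interaction term, the PD difference in 5/6Nx minus that in Sham. No gene passed an adjusted p under 0.05 in limma, where 714 (4.38%) had an unadjusted p under 0.05, and none passed in limma-voom with sample quality weights, where 1911 did. The smallest adjusted p was 0.216. For the 30 called genes the term ran from -1.0 to 0.66, and 19 lay within 0.2 of 0. Its median standard error over all genes was 0.164. Differences several times their standard error also did not pass, such as Cry2 (-0.82 ± 0.15, adjusted p 0.216, limma). The lack of calls therefore does not show that the 2 surgeries responded alike. Within the called genes, 5 had an unadjusted p under 0.05 for it: Mmp8 (0.66), Npas2 (0.56) and Pspc1 (0.24), and, below 0, Cyp26b1 (-1.0) and P4ha1 (-0.38).

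The called neutrophil transcripts showed the largest increases. S100a8, whose product forms the calprotectin dimer with that of S100a9, had 203, 1112 and 2383 normalized reads as the lowest, median and highest library in 5/6Nx PD, against 121, 141 and 297 in 5/6Nx Control. In Sham it had 308, 495 and 700 in PD, against 27.4, 121 and 140 in Control. The groups did not overlap in Sham, and in 5/6Nx only the lowest PD library (replicate 6) fell among the Controls. Over both surgeries it was 6.29-fold higher, a log2 difference of 1.86 ± 0.22 (SE) with an adjusted p of 4.38e-05 (limma). S100a9 had 358, 1936 and 3805 normalized reads in 5/6Nx PD, against 253, 431 and 639 in 5/6Nx Control, and 587, 974 and 1301 in Sham PD, against 85.6, 282 and 366 in Sham Control. It was 4.35-fold higher (1.68 ± 0.23, adjusted p 1.71e-04, limma), and again the lowest 5/6Nx PD library, the same replicate, lay within the Control range.

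Mmp8, the neutrophil collagenase, separated the 13 PD libraries from all 13 Controls. It had 109, 287 and 690 normalized reads in 5/6Nx PD, against 11.0, 40.0 and 73.0 in 5/6Nx Control. In Sham it had 93.7, 129 and 180 in PD, against 6.76, 34.6 and 47.4 in Control. The increase was 6.71-fold (1.34 ± 0.16, adjusted p 4.38e-05, limma). Retnlg, a resistin-like peptide of rodent myeloid cells, was a low transcript with 23.6, 50.6 and 160 normalized reads in 5/6Nx PD, against 5.17, 8.54 and 16.1 in 5/6Nx Control. In Sham PD it had 10.3, 21.1 and 32.4, and 4 of the 6 Sham Control libraries had no read, the highest reaching 5.91. It rose 7.96-fold over both surgeries (0.79 ± 0.11, adjusted p 4.22e-04, limma), and within each surgery no PD library overlapped a Control. Retnlg was tested because all 13 PD libraries held 10 or more normalized reads, while its Control median was 5.91. Its call thus rests on the group where it was high.

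Mmp8, Retnlg and LOC680491 were the only genes for which every PD library lay above every Control of its own surgery, 0.0184% of the genes tested. Over the neutrophil list, 4 of the 17 genes tested were called, all higher, and 11 had an unadjusted p under 0.05, all higher, against 5.20% of all genes. The median of the list was 0.34. Its genes of granule proteins, with S100a8 and S100a9 filed among them, had 4 of 9 called. None of its 8 surface receptors was called, and 6 of these had an unadjusted p under 0.05, all higher. Of the 17, 2 had a negative difference. Summed over 6 neutrophil markers, the libraries held 912 to 7383 normalized reads in PD (median 2548) and 248 to 1266 in Control (median 786), with 6 of 6 higher and 3 called. Those 3 are S100a8, S100a9 and Mmp8 again, so the sum is not independent of them. In a bulk sample, more cells of a type and more RNA per cell cannot be told apart.

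**Figure D2:**
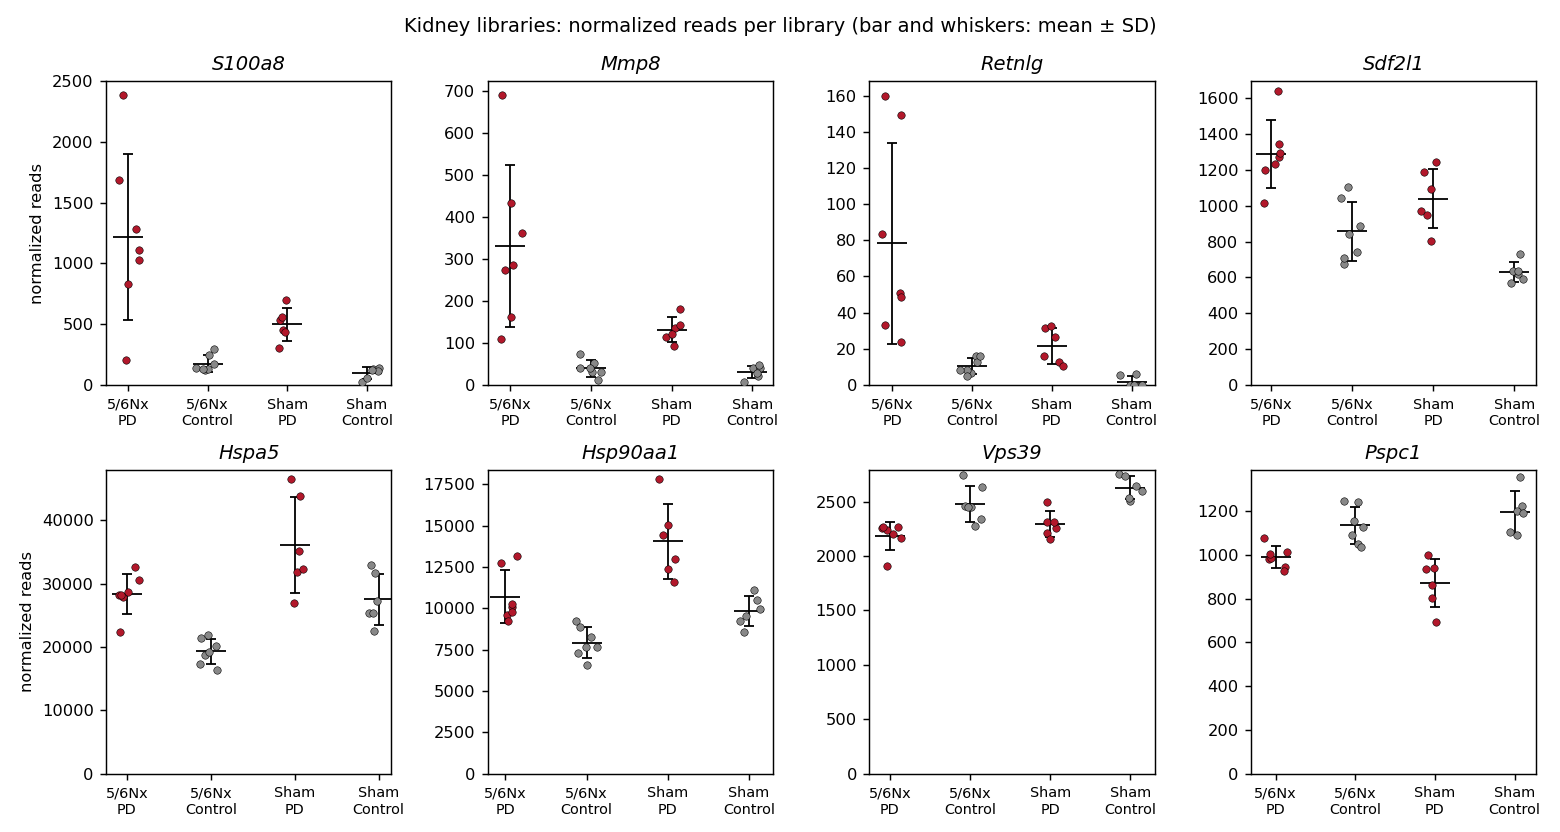
Normalized reads of 8 called genes in each kidney library, 5/6Nx PD and Control then Sham PD and Control, with the mean and SD of each group. Mmp8 separates all 13 PD from all 13 Control libraries, Vps39 separates them within each surgery, and the 5/6Nx PD group has the widest spread for S100a8, Mmp8 and Retnlg.

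Chaperones made up the largest group of called genes, and they rose by similar amounts in both surgeries. Among cytosolic chaperones, Hsp90aa1, the inducible HSP90, had 9216, 10066 and 13198 normalized reads in 5/6Nx PD, against 6575, 7653 and 9255 in 5/6Nx Control. It had 11599, 13713 and 17826 in Sham PD, against 8550, 9769 and 11088 in Sham Control. The groups barely touched in 5/6Nx and did not overlap in Sham, and the gene was 1.39-fold higher (0.46 ± 0.07, adjusted p 0.00172, limma). Hsph1, an HSP110 nucleotide exchange factor for HSP70, was 1.44-fold higher (0.51 ± 0.09, adjusted p 0.00474, limma), with medians of 7645 in 5/6Nx PD and 4921 in 5/6Nx Control, and of 11485 in Sham PD and 8010 in Sham Control. The HSP90 co-chaperones Fkbp4 and Stip1 were 1.26-fold and 1.20-fold higher, with adjusted p of 0.0151 and 0.0402 (limma).

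LOC680491 was 1.42-fold higher (0.43 ± 0.05, adjusted p 9.66e-05, limma). It had 581, 738 and 777 normalized reads in 5/6Nx PD, against 445, 514 and 555 in 5/6Nx Control, and 785, 956 and 1116 in Sham PD, against 596, 643 and 742 in Sham Control. RefSeq lists this locus as Hsp90aa1-ps16, a transcribed pseudogene of Hsp90aa1, and reads shared between the near-identical copies may have been split between them, so its count is uncertain and adds nothing independent to that of Hsp90aa1. LOC103692716, for which no annotation was matched, was 1.35-fold higher (0.43 ± 0.07, adjusted p 0.00640, limma), from group medians of 13469 in 5/6Nx PD and 11493 in 5/6Nx Control, and of 17125 in Sham PD and 13014 in Sham Control.

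In the endoplasmic reticulum, 4 chaperones were called. Sdf2l1, a partner of the HSP70 chaperone of that compartment, had 1017, 1274 and 1642 normalized reads in 5/6Nx PD, against 676, 845 and 1104 in 5/6Nx Control. In Sham it had 801, 1032 and 1244 in PD, against 570, 627 and 731 in Control. It was 1.56-fold higher (0.58 ± 0.08, adjusted p 1.10e-04, limma), with some overlap in 5/6Nx and none in Sham. Hspa5 (BiP), the main HSP70 of the endoplasmic reticulum, had 22365, 28275 and 32653 in 5/6Nx PD, against 16452, 19231 and 21847 in 5/6Nx Control, and 26946, 33778 and 46514 in Sham PD, against 22567, 26315 and 33001 in Sham Control. It was 1.38-fold higher (0.47 ± 0.08, adjusted p 0.00858, limma), without overlap in 5/6Nx and with overlap in Sham. The disulfide isomerase Pdia4 and the HSP90 of this compartment, Hsp90b1, rose by log2 differences of 0.34 ± 0.06 and 0.32 ± 0.06 (adjusted p 0.0115 and 0.0260, limma).

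Of the unfolded protein response list, 4 of 21 genes were called, all higher, and 14 had an unadjusted p under 0.05, all higher, with a median of 0.19. These counts came mostly from its 13 chaperones, of which 4 were called and 11 had an unadjusted p under 0.05. Among its 8 transcription factors and their targets none was called and 3 had an unadjusted p under 0.05, with a median of 0.16. On the heat shock and cold-inducible list 3 of 18 genes were called, Hsp90aa1, Hsph1 and Stip1. All 16 heat shock genes had a positive difference and 8 an unadjusted p under 0.05. The 2 cold-inducible RNA-binding genes on it, Cirbp and Rbm3, each stood at -0.28, with adjusted p of 0.208 and 0.266 (limma), and so did not pass. Without the 2 libraries that stood apart, 5 genes of the unfolded protein response list and 2 of the heat shock list were called.

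Other genes that rose have varied roles, and several depended on single libraries. Cyp26b1, a cytochrome P450 that degrades retinoic acid, had 115, 170 and 251 normalized reads in 5/6Nx PD, against 58.0, 115 and 151 in 5/6Nx Control. It had 167, 496 and 655 in Sham PD, against 66.8, 99.3 and 186 in Sham Control. Its 2.70-fold increase (0.82 ± 0.16, adjusted p 0.0263, limma) was 4.10-fold in Sham and 1.51-fold in 5/6Nx, where the adjusted p alone was 1.0. On the retinoic acid list it was the only one of 19 genes called, and it was no longer called without the 2 libraries that stood apart.

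P4ha1, the catalytic subunit of a collagen prolyl hydroxylase, was 1.47-fold higher (adjusted p 0.0328, limma), with group medians of 1650 in 5/6Nx PD and 1491 in 5/6Nx Control, and of 2816 in Sham PD and 1671 in Sham Control. Pf4, a chemokine stored in platelet granules, was 2.03-fold higher (adjusted p 0.0402, limma), with medians of 380 in 5/6Nx PD and 189 in 5/6Nx Control, and of 109 in Sham PD and 71.1 in Sham Control. Cd300le, a member of the CD300 family of leukocyte receptors, was 1.84-fold higher (adjusted p 0.0307, limma). Its medians were 565 in 5/6Nx PD and 350 in 5/6Nx Control, and 137 in Sham PD and 53.4 in Sham Control. These 3 genes were called in 10 to 15 of the 26 fits that left out 1 library, and not without the 2 libraries that stood apart, as was also true of Stip1, with 9 of 26.

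The genes that fell also have varied roles. Pspc1, a protein of nuclear paraspeckles, had 925, 988 and 1078 normalized reads in 5/6Nx PD, against 1037, 1127 and 1245 in 5/6Nx Control, and 695, 899 and 998 in Sham PD, against 1091, 1196 and 1356 in Sham Control. It stood at 0.805 times Control (-0.28 ± 0.05, adjusted p 0.0138, limma), with no overlap in Sham.

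Dock8, an exchange factor for the GTPase Cdc42 that is known from immune cells, fell to a mean of 5376 ± 920 normalized reads in PD, against 6980 ± 1200 in Control (SD, 13 libraries each, adjusted p 0.0201, limma). For 3 genes, among them Vps39 and Ddx46, every PD library lay below every Control of its own surgery, also 0.0184% of the genes tested. Vps39, a subunit of the complex that tethers vesicles to lysosomes, had 1905, 2237 and 2269 in 5/6Nx PD, against 2272, 2454 and 2747 in 5/6Nx Control, and 2155, 2285 and 2499 in Sham PD, against 2505, 2621 and 2750 in Sham Control. Its 2 groups came within 3 reads of each other in 5/6Nx, and the ratio of means was 0.877 (adjusted p 0.0307, limma). Ddx46, a DEAD-box helicase of the spliceosome, averaged 3166 ± 263 in PD and 3680 ± 265 in Control (adjusted p 0.0334, limma).

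Rbmx, an RNA-binding protein of the hnRNP group, stood at 0.847 times Control in 5/6Nx and in Sham alike (adjusted p 0.0307 over both, limma). The cap methyltransferase Cmtr1 stood at 0.846 times Control and Wdr6, a WD-repeat protein, at 0.814 times (adjusted p 0.0402 and 0.0307, limma). ENSRNOG00000007367, whose symbol in the deposited table had been turned into a date, stood at 0.819 times Control (adjusted p 0.0402, limma). All 13 PD libraries were below the Control median of their own surgery for each of these 4 genes, and for Pspc1, Dock8, Vps39 and Ddx46.

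The remaining 2 genes had few reads. Ranbp17, a nuclear transport receptor related to the exportins, averaged 40.1 ± 15.2 normalized reads in PD and 69.8 ± 15.1 in Control (adjusted p 0.0328, limma). LOC100362814 (D430041D05Rikl in RefSeq, protein coding) had 0, 0 and 16.7 in 5/6Nx PD, against 3.23, 9.96 and 18.0 in 5/6Nx Control, and 11.0, 28.8 and 100 in Sham PD, against 81.6, 109 and 132 in Sham Control (adjusted p 0.0307, limma). Just short of the threshold were C1ql3, a secreted C1q-like protein (adjusted p 0.0551, limma), the RNA-binding gene Hnrnpdl and the replication helicase gene Mcm4 (both 0.0587), Dscc1, a replication factor (0.0606), and LOC680227 (0.0680). Of the 26 fits that left out 1 library, Cmtr1 was called in 6, ENSRNOG00000007367 in 9, Ranbp17 and Ddx46 in 12, LOC100362814 in 16, Rbmx in 17, Vps39 in 18 and Wdr6 in 22, and Cmtr1 was also lost under TMM scaling and unweighted limma-voom. LOC100362814 was lost under TMM scaling, kidney size factors and log2 of normalized reads plus 1. Ranbp17, Ddx46, Cmtr1, Wdr6 and LOC100362814 were not called without the 2 libraries that stood apart.

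Leaving out 1 library at a time gave between 17 and 76 called genes, and 16 of the 30 were called in all 26 such fits. Among these 16 were the 4 neutrophil genes, Npas2, Pspc1, Dock8, LOC680491, LOC103692716 and the 6 chaperone genes Hsp90aa1, Hsph1, Fkbp4, Sdf2l1, Hspa5 and Pdia4. The 76 came without 5/6Nx PD replicate 6, and 59 came without 5/6Nx Control replicate 1. At the low end 17 came without Sham PD replicate 5 or without Sham Control replicate 1, 18 without Sham Control replicate 5 and 19 without Sham PD replicate 1. With both libraries that stood apart left out, 27 genes were called, of which 20 were among the 30. The genes that fell depended most on single libraries, with 3 to 27 called lower over the 26 fits, against 13 to 49 called higher.

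**Figure D3:**
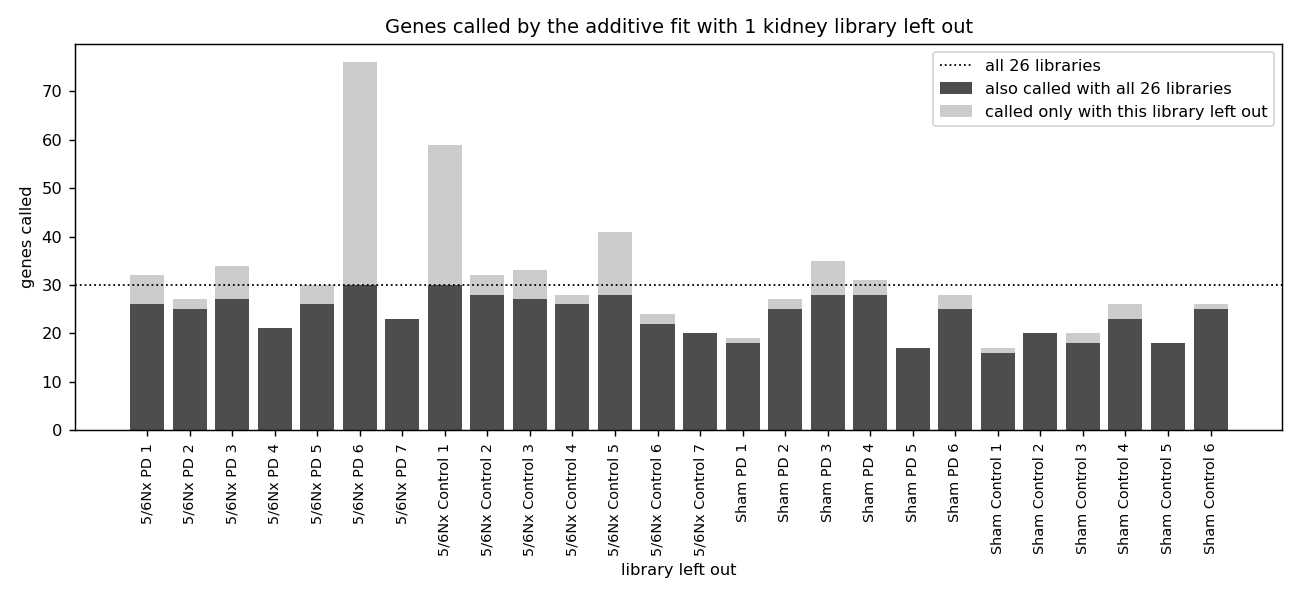
Number of genes called by the additive fit when the library on the x axis is left out, with the part also called with all 26 libraries in dark grey and the dotted line at 30. Leaving out 5/6Nx PD 6 (76 genes) or 5/6Nx Control 1 (59 genes) raises the count with all 30 still called, and leaving out Sham PD 5 or Sham Control 1 (17 genes each) lowers it most.

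Several inflammatory and stromal lists lay to one side without a single call by the pooled fit. Of 26 cytokine, chemokine and endothelial adhesion genes, 24 had a positive difference, 17 an unadjusted p under 0.05, all higher, and none an adjusted p under 0.05 (smallest 0.0901, limma), with a median of 0.29. Its 2 members with the most reads were Cxcl12 (0.11 ± 0.19) and Zfp36 (0.11 ± 0.19). Picked after their values were seen, the neutrophil attractant Cxcl1 averaged 114 normalized reads in PD and 35.4 in Control (adjusted p 0.0901, limma), and Vcam1, an adhesion molecule for leukocytes, averaged 2179 in PD and 1203 in Control (adjusted p 0.0911). Neither passed in the pooled fit. The study's own tests (DESeq2) of the single surgeries do list inflammatory and stromal genes as higher with PD. Among them are Cxcl1 and Cd163 in remnant kidneys, and Il1b, Msr1 and Lum in Sham kidneys. The lack of calls on these lists is thus specific to the pooled fit.

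On the macrophage receptor list 25 of 26 genes had a positive difference and 19 an unadjusted p under 0.05, all higher, with a median of 0.45 and a smallest adjusted p of 0.0551 (limma). Lyz2, the myeloid lysozyme, averaged 34092 ± 16642 normalized reads in PD and 25186 ± 18319 in Control (adjusted p 0.226), and Csf1r, the receptor that macrophages need for survival, 2984 ± 1104 in PD and 2751 ± 1744 in Control (adjusted p 0.602, limma). The summed macrophage markers ran from 5027 to 25961 in PD (median 13703) and from 2696 to 22535 in Control (median 7361). The 5/6Nx kidneys held more than the Sham kidneys, with medians of 15150 in 5/6Nx PD and 13189 in 5/6Nx Control, and of 7030 in Sham PD and 4783 in Sham Control.

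All 20 matrix and fibroblast genes had a positive difference, with a median of 0.40, and 9 had an unadjusted p under 0.05 (smallest adjusted p 0.208, limma). Col3a1, a fibrillar collagen, averaged 17339 ± 15902 normalized reads in PD and 10528 ± 11295 in Control (adjusted p 0.317), and Col4a1, a basement membrane collagen, stood at 0.18 ± 0.16. Markers of fibroblasts and mural cells ran from 13382 to 105762 summed reads in PD and from 8507 to 76963 in Control. Their medians were 59621 in 5/6Nx PD and 50908 in 5/6Nx Control, and 17168 in Sham PD and 11502 in Sham Control. The medians over both surgeries, 31328 in PD and 13651 in Control, mix these levels and overstate the difference. Of the 6 markers, 6 were higher and 5 had an unadjusted p under 0.05. The part of these cells in the list was not tested. The 16 acute phase genes were all positive, 6 of them at an unadjusted p under 0.05 and none called, and both of the most abundant, Cp (ceruloplasmin) and Stat3, missed the threshold (adjusted p 0.453 and 0.208, limma).

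The mitotic cell cycle list lay on the other side, with 26 of 27 genes negative, a median of -0.27 and 15 at an unadjusted p under 0.05, all lower, against 6.21% of all genes. None was called (smallest adjusted p 0.0587, limma, for Mcm4). Its 2 members with the most reads were the spindle motor Kif11 (-0.11 ± 0.16) and the replication clamp Pcna (0.03 ± 0.07). Mki67, the proliferation marker, chosen after its values were seen, averaged 873 normalized reads in PD and 1186 in Control (-0.49 ± 0.21, adjusted p 0.364, limma). Without the 2 libraries that stood apart, 8 rather than 15 had an unadjusted p under 0.05 and the median was -0.23.

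**Figure D4:**
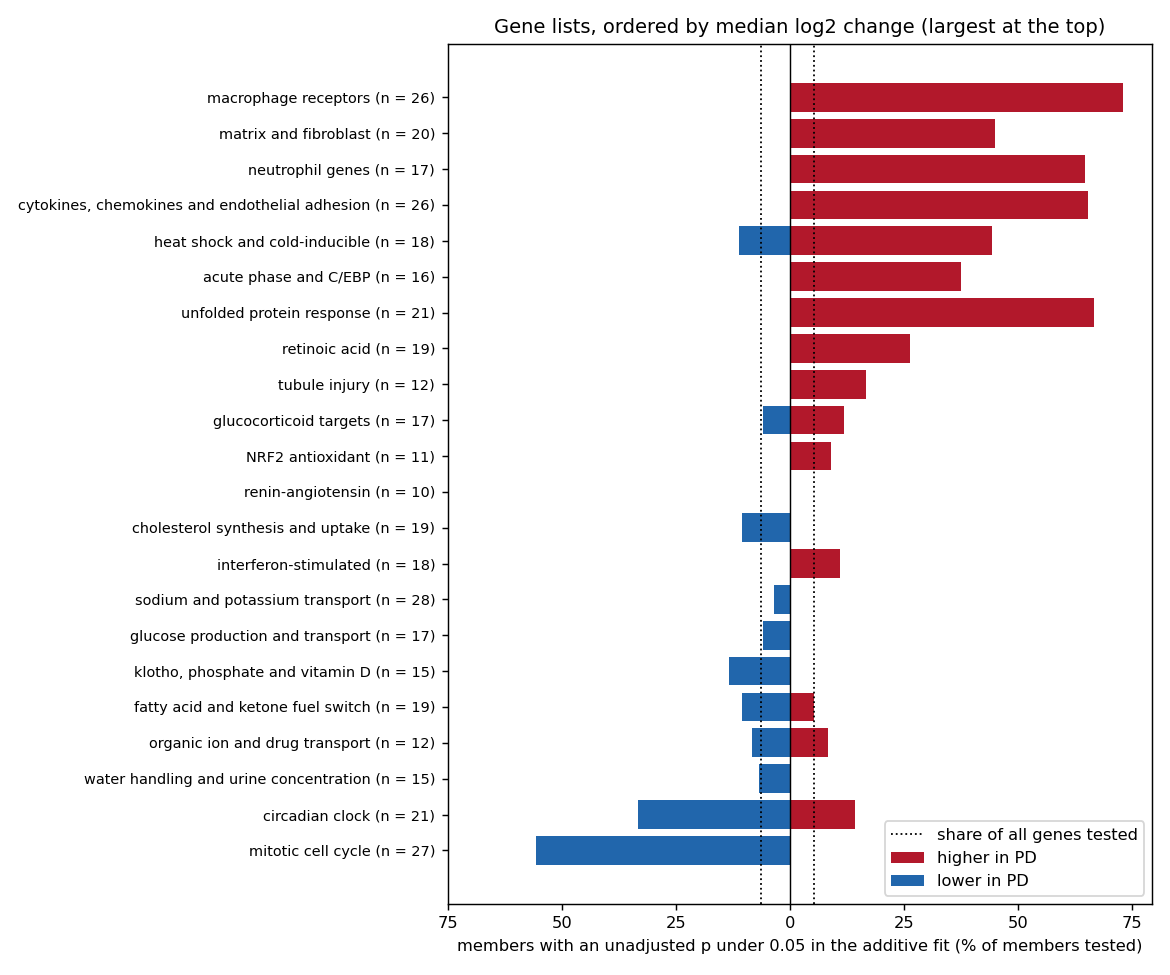
Percentage of the members tested of each of 22 gene lists with an unadjusted p under 0.05 in the additive fit, higher in PD to the right and lower in PD to the left, with dotted lines at the shares over all genes (5.20% higher and 6.21% lower). The macrophage, unfolded protein response, cytokine and neutrophil lists reach 64.7% to 73.1% to the right, and the mitotic list 55.6% to the left.

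Functions of the tubule showed few differences. No gene was called on the lists for sodium and potassium transport (28 genes tested, median -0.05), water handling (15 genes, -0.14), glucose production and transport (17, -0.07), fatty acid and ketone fuels (19, -0.11), klotho, phosphate and vitamin D (15, -0.08), renin-angiotensin (10, -0.03) or organic ion and drug transport (12, -0.12). Each of these lists had at most 1 member higher and at most 2 members lower at an unadjusted p under 0.05. The Tamm-Horsfall protein gene Umod averaged 296965 ± 84593 in PD and 267098 ± 100485 in Control (adjusted p 0.632, limma). Aqp2, the vasopressin-regulated water channel, stood at -0.35 ± 0.18 and Aqp1, the proximal water channel, at -0.14 ± 0.14 (adjusted p 0.458 and 0.728, limma). Pck1, an enzyme of glucose production, differed by -0.17 ± 0.21, and Slc22a6 and Slc22a2, the uptake carriers for organic anions and cations, by -0.11 ± 0.23 and -0.07 ± 0.28. None of these 6 genes passed, and standard errors of 0.14 to 0.28 leave changes of that size undetectable here.

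Tubule injury genes had 2 of 12 at an unadjusted p under 0.05 and none called, with a median of 0.37 in Sham alone and -0.16 in 5/6Nx alone. Their 2 most abundant members were Spp1 (osteopontin), at 0.00 ± 0.23, and Clu (clusterin), at -0.20 ± 0.22. The glucocorticoid target, interferon, cholesterol and NRF2 antioxidant lists held 17, 18, 19 and 11 tested genes, none of them called, with medians between -0.04 and 0.06.

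On the clock list 10 of 21 genes had an unadjusted p under 0.05 for the interaction, and an additive model averages over the values of the surgeries. Npas2, a partner of Arntl in activating the clock's target genes, was the only one of 21 called. It had 181, 235 and 310 normalized reads in 5/6Nx PD, against 65.7, 106 and 148 in 5/6Nx Control, with no overlap. In Sham it had 83.6, 119 and 136 in PD, against 54.8, 92.1 and 140 in Control, with full overlap. The pooled increase of 1.88-fold (0.52 ± 0.10, adjusted p 0.0205, limma) was 2.33-fold in 5/6Nx and 1.29-fold in Sham, and the interaction was 0.56 ± 0.17 with an unadjusted p of 0.00306 and an adjusted p of 0.959 (limma).

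Arntl, the central activator, had 338, 740 and 929 normalized reads in 5/6Nx PD, against 172, 243 and 341 in 5/6Nx Control. In Sham it had 139, 225 and 325 in PD, against 125, 199 and 314 in Control. It was called in 5/6Nx alone (2.78-fold, 1.15, adjusted p 0.0435, limma), differed by 0.08 in Sham and missed the threshold in the pooled fit (0.66 ± 0.16, adjusted p 0.0861). With limma-voom and sample quality weights 5/6Nx alone called 0 genes, with 1183 at an unadjusted p under 0.05, so the calls of Arntl and Mmp8 in that surgery alone were lost there. The 6 repressors varied among themselves. In 5/6Nx they stood at -0.86 for Per3, -0.73 for Per2, -0.81 for Ciart, -0.54 for Cry2, -0.24 for Per1 and -0.23 for Cry1. In Sham they stood at -0.19 for Per3, 0.12 for Per2, -0.33 for Ciart, 0.27 for Cry2, -0.74 for Per1 and 0.42 for Cry1. Per1 was thus the lowest of the 6 in Sham, while Cry1, Cry2 and Per2 were positive there. The output genes Dbp and Tef differed by -0.82 and -0.65 in 5/6Nx, against -0.11 and -0.05 in Sham. None of these 8 genes was called in either surgery by limma, whereas the study's own test (DESeq2) of 5/6Nx kidneys lists Cry2 and Per3 as lower with PD. That test also lists Arntl, Npas2 and Mmp8 as higher with PD.

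Cry2 had the smallest interaction p of all genes tested (-0.82 ± 0.15, adjusted p 0.216, limma). It had 1161, 1629 and 2078 normalized reads in 5/6Nx PD, against 1952, 2335 and 2636 in 5/6Nx Control, and 2256, 2532 and 2907 in Sham PD, against 1671, 2108 and 2561 in Sham Control. The 10 genes of the list with an unadjusted interaction p under 0.05 stand beside 4.38% of all genes, and none had an adjusted p under 0.05. In 5/6Nx alone 11 had an unadjusted p under 0.05, 8 of them lower, where 4.07% of all genes did, and in Sham alone 4 did, where 17.2% of all genes did. The pooled fit had 3 higher and 7 lower at that level, with a median of -0.17. The hour at which each rat was killed is not given in the sources used here, so its part in these values was not tested.

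**Figure D5:**
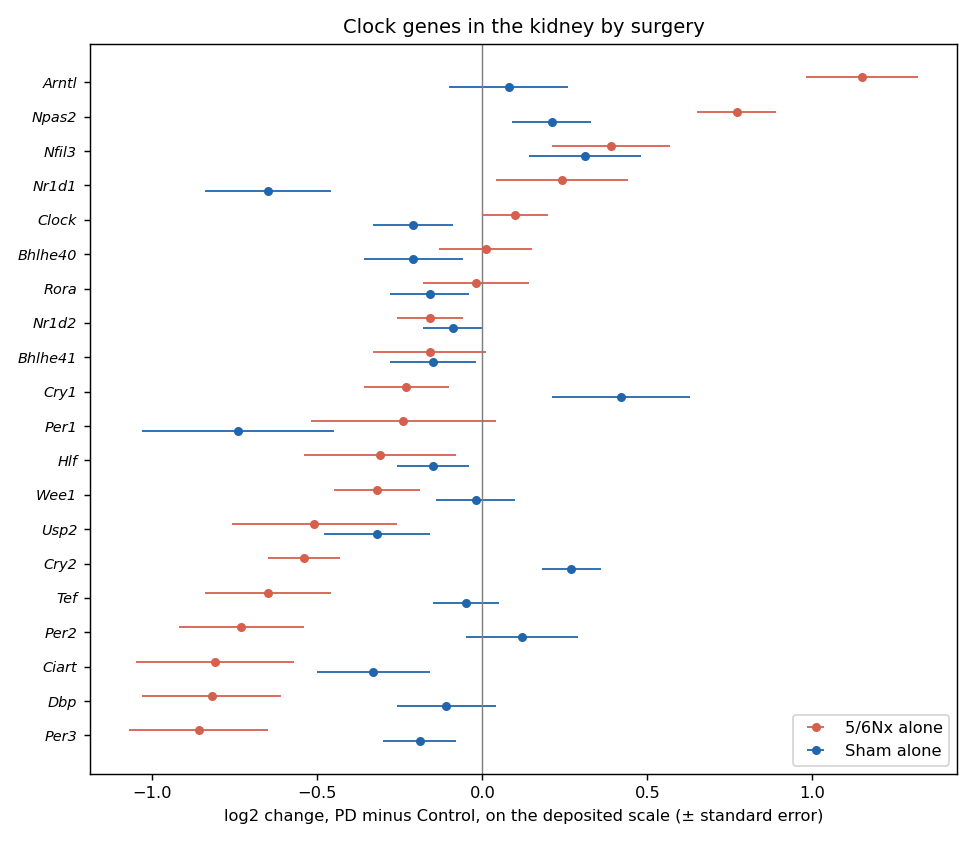
Log2 difference of PD minus Control with its standard error for 20 of the 21 clock genes tested, in 5/6Nx alone (red) and Sham alone (blue), ordered by the 5/6Nx value. Arntl and Npas2 are highest in 5/6Nx at 1.15 and 0.77, Per3 is lowest at -0.86, and Nr1d1, Cry1 and Cry2 lie on opposite sides of 0 in the 2 surgeries.

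The pooled fit also left behind genes that a single surgery had called. Of 25 such genes, 24 came from Sham and 1, Arntl, from 5/6Nx, and none had an unadjusted p under 0.05 in the other surgery. Scn8a, a voltage-gated sodium channel, had 472, 662 and 729 normalized reads in Sham PD, against 1094, 1492 and 1668 in Sham Control (adjusted p 0.00522, limma). In 5/6Nx it had 53.6, 177 and 359 in PD, against 66.6, 195 and 860 in Control, and the pooled difference of -0.69 ± 0.21 did not pass (adjusted p 0.207). Gpd2, the mitochondrial glycerol phosphate dehydrogenase, stood at -0.64 in Sham and -0.05 in 5/6Nx, and the zinc finger gene Zfp136 at -0.82 in Sham and -0.09 in 5/6Nx. Dmbt1, a secreted scavenger receptor of epithelia, and Vwa1, a matrix protein, rose 2.82-fold and 1.74-fold in Sham and stood at 1.30 and 1.19 times Control in 5/6Nx, where neither passed.

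The other genes with the smallest interaction p were Gpd2 (0.60 ± 0.12), Dhrs9 (1.42 ± 0.30) and Zfp136 (0.73 ± 0.15), with an adjusted p of 0.291 each (limma), and Dzip1l (-0.56 ± 0.12, adjusted p 0.451). Dhrs9, a retinol dehydrogenase, had 93.9, 285 and 479 normalized reads in 5/6Nx PD, against 36.0, 51.9 and 94.5 in 5/6Nx Control. In Sham it had 0, 8.13 and 15.2 in PD, against 0, 9.79 and 48.8 in Control. The 5/6Nx groups touched at their ends and the gene did not pass there alone (adjusted p 0.111, limma). The study's own test (DESeq2) of 5/6Nx kidneys does list Dhrs9 as higher with PD. No Sham library reached the lowest 5/6Nx PD value. Of the 5 genes, none was called by the pooled fit.

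The same additive model was fitted to the 26 left ventricle (LV) libraries of the series, on the same genes, to see which kidney differences were not shared. It called 60 genes (0.368%), 50 higher and 10 lower in PD. Of the 19 genes higher in the kidney, 10 were also called higher in LV: S100a8, S100a9, Mmp8, Retnlg, Sdf2l1, Hspa5, Pdia4, Hsp90b1, Cyp26b1 and P4ha1. S100a8 averaged 4842 ± 1713 normalized reads in LV PD and 1755 ± 922 in LV Control (log2 difference 1.51, against 1.86 in the kidney). Hspa5 averaged 38661 ± 8483 in LV PD and 24724 ± 3214 in LV Control (0.62 in LV, 0.47 in the kidney). For these 10 the difference between the tissues did not pass (limma), and 2 of the 19 higher genes had an unadjusted p under 0.05 for it, Hsp90aa1 (0.27 ± 0.13) and LOC680491 (0.29 ± 0.10).

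None of the 11 genes lower in the kidney was called in LV, where their differences ran from -0.31 to 0.06. The kidney difference minus the LV difference ran from -0.39 to -0.13. An unadjusted p under 0.05 was found for 9 of the 11, and for 859 of all 16285 genes tested, and none of the 11 passed after adjustment. The 11 were picked for a negative kidney difference in these same libraries, which favours values below 0 in advance. The count is thus no test of whether LV shares the decreases. Pspc1 averaged 936 ± 100 in PD and 1163 ± 90.9 in Control kidneys, and 879 ± 116 in PD and 858 ± 131 in Control LV (difference between tissues -0.32 ± 0.09, adjusted p 0.408, limma). Dock8 differed between the tissues by -0.39 ± 0.14 (adjusted p 0.693), at an LV level of 582 ± 206 in PD and 552 ± 113 in Control.

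A single gene differed between the tissues past the threshold (0.00614% of the genes tested). Mmp9, the gelatinase of neutrophils and macrophages, averaged 162 ± 101 normalized reads in PD and 128 ± 60.6 in Control kidneys, against 451 ± 151 in PD and 104 ± 47.7 in Control LV (-1.29 ± 0.22, adjusted p 0.00589, limma). In kidney it differed by 0.49 in 5/6Nx and -0.22 in Sham, and the pooled difference of 0.16 ± 0.19 did not pass. The next genes by p all missed the threshold at an adjusted p of 0.139: Serpinb1a, an inhibitor of neutrophil proteases (-1.14 ± 0.25), Olfm4, a granule and epithelial glycoprotein (-0.91 ± 0.19), Osr1, a transcription factor of kidney development (0.78 ± 0.17), and RGD1563056 (-0.53 ± 0.12). Serpinb1a averaged 3074 ± 747 in PD and 3088 ± 983 in Control kidneys, and 1138 ± 547 in PD and 437 ± 218 in Control LV. The labels do not tie the 2 tissues of a rat, so these fits treat the libraries as independent.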

How the data were processed

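Poly(A) RNA libraries (TruSeq stranded kit) from 26 kidneys and 26 left ventricles were sequenced as paired reads. Per the labels and the study's methods, the authors trimmed reads with Trim Galore and cutadapt, aligned them to rn6 with HISAT2 (2.1.1 in the submitters' processing notes), counted genes with StringTie2 and used DESeq2. The deposited table holds log2 values of 20624 genes, which the authors made by variance stabilisation over all 52 libraries. No label names this scale, which was inferred from the whole reads that inverting the transformation gave (largest deviation 5.77e-08). The lowest value, 5.92, stands for 0 reads. Columns of the authors' own fold changes and p-values were not used.

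Genes with at least 10 normalized reads in at least 13 of 26 kidney libraries (16285) were fitted with limma 3.58.1 in R 4.3.3 (statmod 1.5.0, trend and robust variance), with surgery as a covariate, and called at a two-sided Benjamini-Hochberg adjusted p under 0.05. Group levels are normalized reads. The code was tested on simulated data. The study describes rats housed singly in metabolic cages and samples multiplexed on a flow cell, but the labels name no batch. Each library is taken as 1 rat. Replicate numbers only name libraries, in accession order. Named genes were, in each direction, the 15 with the lowest adjusted p among those averaging 20 or more normalized reads in PD or Control, up to 5 called members of each list (or its 2 with the most reads), all clock genes, up to 5 genes called in 1 surgery only, and the 5 of smallest interaction p. Some genes under this rule are not reported here. The comparison, the lists and the markers were chosen with earlier results of these data known. Listed genes such as Itgam and Col1a2 were not analysed here, and a symbol with 2 identifiers keeps the one with most reads. Alternatives covered scaling, filters, limma-voom, weights, covariates and libraries left out.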

Additional observations from a re-analysis of the deposited data

Results flagged for a closer look

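Within the 30 called genes and the 4 kidney groups, 4 of 120 gene and group pairs (3.33%) held a library whose gap to the nearest other was large for the range of its group by Dixon's test. Chance alone gives such a library in about 1 in 20 groups. S100a9 had 358 normalized reads in 5/6Nx PD replicate 6, below the 1471 to 3805 of the other libraries of that group. Hspa5 was lowest in the same library, with 22365 normalized reads against 27946 to 32653 in the others. This is the library without which the additive fit called 76 genes. Vps39 had 1905 normalized reads in 5/6Nx PD replicate 5, below the 2161 to 2269 of the others. Cmtr1 had 3800 in Sham Control replicate 4, below 4391 to 4783, and so lay toward the PD values of that gene.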

How the results depend on the processing

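The additive fit called 30 genes, 19 higher and 11 lower. It called 104 (51 higher, 53 lower) with limma-voom and sample quality weights, 143 (81 and 62) with array weights and 8 (6 and 2) without the surgery term. Leaving out 1 library gave 17 to 76 called genes, 13 to 49 higher and 3 to 27 lower. With quality weights Sham alone called 194 genes and 5/6Nx alone 0, with 1183 at an unadjusted p under 0.05. Other scalings, filters, unweighted voom, a depth term and averaging the surgeries gave 28 to 39, with 63.3% of calls higher in the additive fit, 70.6% after TMM and 71.1% after kidney size factors. Leaving out the 2 libraries that stood apart, chosen after seeing the data, gave 27, and 36 with the shallowest library also out. No called gene reversed.

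Genes near 0, none called, changed sign. Hsd11b1 gave -0.00 without the 2 libraries that stood apart and -0.04 without these and the shallowest, where Fdft1 gave -0.02. Under quality weights, array weights, without the 2 libraries and without the 3, Gclc gave -0.12, -0.18, -0.16 and -0.19, and Ifi27 0.11, 0.10, 0.06 and 0.05. Dzip1l and Spp1 gave -0.00 after TMM. With 1 library left out, ranges were -0.08 to 0.00 for Clock, -0.03 to 0.20 for Cxcl12, -0.03 to 0.04 for Dzip1l, -0.16 to 0.21 for Gclc, -0.12 to 0.07 for Gclm, -0.13 to 0.06 for Ifi27, -0.12 to 0.01 for Pth1r, -0.03 to 0.06 for Serpinb1a, -0.22 to 0.09 for Slc22a2, -0.24 to 0.01 for Slc22a6, -0.18 to 0.15 for Slc34a1 and -0.09 to 0.10 for Spp1. The causes were not tested. Genes with under 100 normalized reads, 3 of the 30, have the widest counting error. No paired analysis was possible because the labels carry no replicate numbers and PD and Control rats are different animals.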
